A study of Mus musculus with 9 samples.

Results

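The genes described here encode the classical proteins of neutrophil granules: *Mpo*, *Elane*, *Prtn3*, *Ltf*, *Ngp*, *Camp*, *Lcn2* and *Mmp8*, together with *S100a8* and *S100a9*, the cytosolic proteins that neutrophils carry in bulk. They were taken by gene symbol from the table of all genes, and all 10 were found among 30588 named genes. They were measured by RNA-Seq in dendritic cells (DCs) grown from mouse bone marrow, a tissue whose main leukocyte product is the neutrophil. Cells from femurs and tibiae were cultured for 6 days with GM-CSF, a cytokine that drives both granulocyte and DC formation, and CD11c+ cells were then selected with magnetic beads and received no treatment.

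The 4 Δ*Gnas* libraries came from C57BL/6J mice that carry *Gnas* fl/fl and CD11c-Cre, and thus lose the stimulatory G protein Gαs, which raises cAMP, in cells that use the CD11c (*Itgax*) promoter. The 5 WT libraries came from C57BL/6J mice, and whether these carried the floxed allele or Cre, like the age of all mice, is not given in the sources used here. Replicates 3, 4, 6 and 7 are Δ*Gnas*, and replicates 3, 4, 5, 6 and 7 are WT. Replicates 3 and 4 of both genotypes are labelled male, and the others female. The Cre line is known to be leaky, and in which marrow cells of these mice *Gnas* was deleted was not measured here.

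Depth was 37861469 to 49072920 estimated counts in the Δ*Gnas* libraries and 34252701 to 49427934 in the WT libraries. *Gnas* itself was at 48.0 to 63.6 TPM (a level per unit of transcript length, scaled to the same total in each library) in Δ*Gnas* DCs, against 404 to 532 TPM in WT DCs. All 8 DC markers were detected, from *Cd74* at 13336 to 16525 TPM in Δ*Gnas* DCs and 9128 to 17639 TPM in WT DCs down to *Flt3* at 3.73 to 8.90 TPM in Δ*Gnas* DCs and 2.65 to 11.7 TPM in WT DCs. By edgeR, *Itgax* (log2 fold change of Δ*Gnas* over WT 1.09, adjusted p = 0.0272) and *H2-Ab1* (0.44, adjusted p = 0.0475) were higher in Δ*Gnas* DCs, and *Zbtb46* (-0.80, adjusted p = 0.0228) and *Ccr7* (-1.43, adjusted p = 0.04998) were lower. *Itgax* encodes CD11c, by which the cells were selected, and was at 331 to 415 TPM in Δ*Gnas* DCs and 88.3 to 279 TPM in WT DCs. Its call ended without any of 5 libraries, that of *Zbtb46* without any of 3, and those of *H2-Ab1* and *Ccr7* without any of 8. WT replicate 7 is labelled female but had 72.8 TPM of the Y-linked gene *Eif2s3y*, where the 4 libraries labelled male had 63.9 to 74.5 TPM. In WT replicate 3, mitochondrially encoded transcripts made up 1.39% of all TPM, against 5.85 to 8.54% in the other 8 libraries.

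Neutrophils fill their granules in sequence as they mature in the marrow. Azurophil granules come first, in promyelocytes, and hold myeloperoxidase and serine proteases. Specific granules follow at the myelocyte stage with lactoferrin, cathelicidin and lipocalin 2, then gelatinase granules with matrix proteases, and the mature cell stops most of this transcription. The transcripts therefore mark stages of granulocyte formation, and *S100a8* and *S100a9* are also made by monocytes. C/EBPα, C/EBPε and PU.1 (*Spi1*) are the transcription factors best known for driving these genes.

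The promoters of 4 granule genes are shown. *Ngp*, *Ltf* and *Lcn2* had the same highest library, Δ*Gnas* replicate 4, and the same lowest pair, WT replicates 5 and 6, whereas *Mmp8* was highest in WT replicate 6. *Camp*, *S100a8* and *S100a9*, not shown, had the same highest library and lowest pair as *Ngp*. The promoters are from RefSeq (GRCm38.p6), from 250 bases before to 50 bases after the annotated start, 5′ to 3′ on the gene's strand, and all 10 genes matched a promoter there. Capitals mark matches to the C/EBP motif TTGCNNAA (TTNNGCAA on the other strand) and, as runs of 6 capitals, to the PU.1 core GAGGAA, which reads TTCCTC on the other strand.
Ngp, chr9:110419558-110419857, plus strand: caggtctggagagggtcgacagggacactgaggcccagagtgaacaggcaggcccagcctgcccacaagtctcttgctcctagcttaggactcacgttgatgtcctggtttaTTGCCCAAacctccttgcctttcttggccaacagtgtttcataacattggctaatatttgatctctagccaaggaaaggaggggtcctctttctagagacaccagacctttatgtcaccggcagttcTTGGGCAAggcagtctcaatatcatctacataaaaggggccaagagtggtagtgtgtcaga
Ltf, chr9:111019042-111019341, plus strand: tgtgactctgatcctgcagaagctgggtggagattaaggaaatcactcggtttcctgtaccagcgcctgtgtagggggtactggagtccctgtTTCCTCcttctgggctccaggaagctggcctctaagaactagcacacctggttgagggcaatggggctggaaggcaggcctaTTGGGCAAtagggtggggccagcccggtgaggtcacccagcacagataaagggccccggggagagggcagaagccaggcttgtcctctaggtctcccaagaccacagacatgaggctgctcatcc
Lcn2, chr2:32387690-32387989, minus strand: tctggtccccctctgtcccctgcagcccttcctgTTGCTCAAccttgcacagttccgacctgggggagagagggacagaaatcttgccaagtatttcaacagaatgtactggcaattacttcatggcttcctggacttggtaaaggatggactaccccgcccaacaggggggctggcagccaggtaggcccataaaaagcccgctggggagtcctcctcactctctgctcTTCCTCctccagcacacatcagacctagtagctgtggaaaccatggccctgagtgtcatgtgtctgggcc
Mmp8, chr9:7558179-7558478, plus strand: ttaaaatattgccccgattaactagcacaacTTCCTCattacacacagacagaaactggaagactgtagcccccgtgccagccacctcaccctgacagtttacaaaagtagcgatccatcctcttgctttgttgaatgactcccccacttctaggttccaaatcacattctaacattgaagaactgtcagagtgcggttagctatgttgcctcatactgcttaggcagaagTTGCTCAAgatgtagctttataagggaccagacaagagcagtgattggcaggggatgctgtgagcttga

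The C/EBP motif stood in 5 of the 10 promoters, those of *Ngp*, *Ltf*, *Lcn2*, *Mmp8* and *S100a9*, and in 10.8% of all 32851 promoters of this length. *Ngp* held it at 2 places, 138 and 11 bases before the start, and *Mmp8* held it 19 bases before the start. The PU.1 core stood in 7 of the 10 promoters (*Mpo*, *Elane*, *Prtn3*, *Ltf*, *Lcn2*, *Mmp8* and *S100a8*) and in 28.3% of all promoters. No match to one motif overlapped a match to the other in these 10 promoters. *Mmp8* thus shared both motifs with *Ltf* and *Lcn2*. *Camp*, which had the same highest library and lowest pair as *Ltf* and *Lcn2*, held a match to neither motif. *S100a8*, also of that order, held none to the C/EBP motif. A match of letters describes the sequence and shows no binding.

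Several of the genes are neighbours (GRCm38 coordinates of GENCODE). *Camp* (chr9:109847379-109849617), *Ngp* (chr9:110419747-110423012) and *Ltf* (chr9:111019271-111042767) follow each other on chromosome 9 with 570 kb and 596 kb between them, and *Mmp8* lies far away on the same chromosome (chr9:7558456-7568485). *Prtn3* (chr10:79874476-79883174) and *Elane* (chr10:79886247-79888215) are 3.07 kb apart. *S100a8* (chr3:90668978-90670035) and *S100a9* (chr3:90692632-90695721) are 22.6 kb apart on opposite strands. *Lcn2* (chr2:32384633-32388252) and *Mpo* (chr11:87793581-87804413) each lie alone.

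The genes covered a wide span of levels. *Mmp8*, *S100a8* and *S100a9* were the highest, with mean TPM over all libraries at the 98.8, 97.9 and 96.8 percentile of all genes. *Lcn2* and *Ngp* came next, at the 77.8 and 75.4 percentile, followed by *Camp* at 65.8 and *Ltf* at 64.1. The azurophil genes were last, with *Prtn3* at the 60.4, *Mpo* at the 57.5 and *Elane* at the 55.9 percentile. At a detection level of 1 TPM, 5 genes (*Ngp*, *Lcn2*, *Mmp8*, *S100a8* and *S100a9*) were found in all 9 libraries, *Ltf* and *Camp* in 6, *Prtn3* in 2, *Mpo* in 1 and *Elane* in 0.

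**Figure D1:**
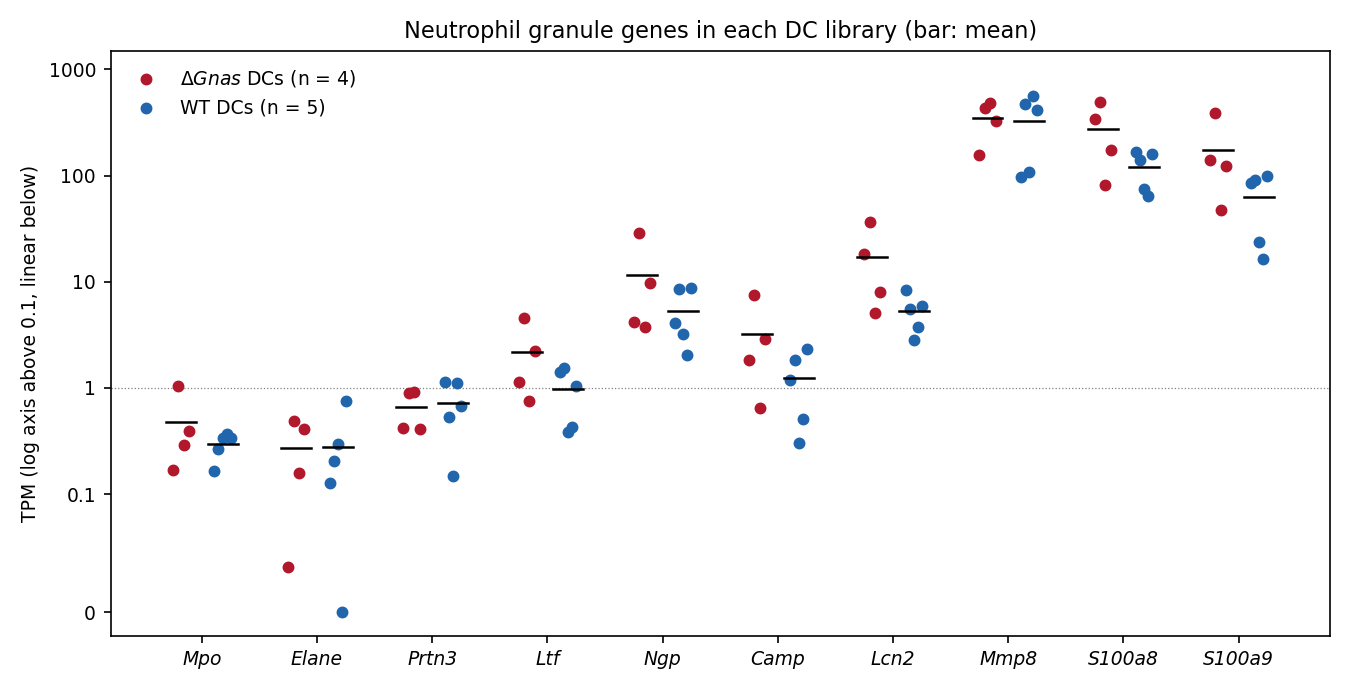
TPM of the 10 genes (x axis) in each library on a y axis that is logarithmic above 0.1 and linear below, with Δ*Gnas* DCs (n = 4) in red left of WT DCs (n = 5) in blue; a bar marks the mean and the dotted line 1 TPM. The azurophil genes *Mpo*, *Elane* and *Prtn3* lie at or below 1.14 TPM in every library, *Mmp8*, *S100a8* and *S100a9* lie between 16.6 and 557 TPM, and the genotypes overlap for each gene.

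The azurophil genes were close to the limit of detection in both genotypes. *Mpo*, whose product myeloperoxidase makes hypochlorous acid, was at 0.167, 1.04, 0.291 and 0.395 TPM in Δ*Gnas* replicates 3, 4, 6 and 7, against 0.164, 0.267, 0.337, 0.369 and 0.340 TPM in WT replicates 3 to 7. *Elane*, neutrophil elastase, was at 0.0384, 0.487, 0.158 and 0.406 TPM in Δ*Gnas* DCs, against 0.127, 0.207, 0.295, 0 and 0.746 TPM in WT DCs in the same order. *Prtn3*, the serine protease proteinase 3, was at 0.420, 0.888, 0.906 and 0.411 TPM in Δ*Gnas* DCs, against 1.14, 0.529, 0.148, 1.11 and 0.680 TPM in WT DCs. The ranges of the genotypes overlapped for all 3 genes. For *Mpo*, Δ*Gnas* replicates 4 and 7 lay above every WT library, replicate 7 only narrowly (0.395 against 0.369 TPM).

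Their rounded counts were small. *Mpo* had 7 to 51 counts in Δ*Gnas* and 8 to 17 in WT libraries, *Elane* 2 to 24 and 0 to 34, and *Prtn3* 17 to 44 and 5 to 56. None of the 3 reached over 1 CPM (counts scaled to library size) in at least 3 libraries, so none entered the main test. Without that filter, edgeR gave log2 fold changes (Δ*Gnas* over WT, as throughout) of 0.69 (SE 0.58, adjusted p = 0.543) for *Mpo*, -0.06 (SE 1.03, adjusted p = 0.982) for *Elane* and -0.12 (SE 0.54, adjusted p = 0.938) for *Prtn3*. None of these passed the threshold, and the standard errors hold both the low counts and the spread between libraries.

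*Ltf*, *Ngp*, *Camp* and *Lcn2*, of the specific granules, were higher, and all had their highest level in Δ*Gnas* replicate 4. *Ltf*, the iron-binding protein lactoferrin, was at 1.14, 4.55, 0.759 and 2.23 TPM in Δ*Gnas* DCs, against 1.43, 1.56, 0.388, 0.433 and 1.05 TPM in WT DCs. *Ngp*, neutrophilic granule protein, a relative of the cathelicidins, was at 4.18, 28.8, 3.76 and 9.77 TPM in Δ*Gnas* DCs, against 4.10, 8.61, 3.23, 2.05 and 8.65 TPM in WT DCs. For both genes Δ*Gnas* replicates 4 and 7 lay above every WT library, and Δ*Gnas* replicates 3 and 6 lay among them.

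*Camp*, the antimicrobial peptide cathelicidin, was at 1.82, 7.43, 0.649 and 2.88 TPM in Δ*Gnas* DCs, against 1.19, 1.85, 0.304, 0.513 and 2.35 TPM in WT DCs. *Lcn2*, lipocalin 2, which withholds iron from bacteria by binding their siderophores, was at 18.5, 36.9, 5.11 and 7.96 TPM in Δ*Gnas* DCs, against 8.31, 5.49, 2.81, 3.76 and 5.98 TPM in WT DCs. *Camp* was above every WT library in Δ*Gnas* replicates 4 and 7, and *Lcn2* in Δ*Gnas* replicates 3 and 4. Means were 2.17 ± 1.70 TPM in Δ*Gnas* and 0.971 ± 0.544 in WT DCs for *Ltf*, 11.6 ± 11.8 and 5.33 ± 3.10 for *Ngp*, 3.20 ± 2.97 and 1.24 ± 0.869 for *Camp*, and 17.1 ± 14.4 and 5.27 ± 2.13 for *Lcn2* (SD, n = 4 and 5). The SD in Δ*Gnas* DCs was large beside the mean for each of these genes.

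*Mmp8*, the collagenase of neutrophils, had the highest mean. It was at 157, 437, 485 and 328 TPM in Δ*Gnas* DCs, against 96.7, 471, 107, 557 and 417 TPM in WT DCs. Libraries of both genotypes were high and low, and no Δ*Gnas* library lay above the highest WT library. The means were 352 ± 146 TPM in Δ*Gnas* DCs and 330 ± 214 TPM in WT DCs (SD, n = 4 and 5).

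*S100a8* and *S100a9* encode calcium-binding proteins that join to form calprotectin, which binds zinc and manganese. *S100a8* was at 344, 490, 82.2 and 176 TPM in Δ*Gnas* DCs, against 165, 141, 74.9, 64.8 and 160 TPM in WT DCs. *S100a9* was at 141, 389, 47.3 and 123 TPM in Δ*Gnas* DCs, against 84.5, 91.2, 23.5, 16.6 and 98.4 TPM in WT DCs. For both, Δ*Gnas* replicates 3, 4 and 7 were above all WT libraries, and Δ*Gnas* replicate 6 was below WT replicates 3, 4 and 7.

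The means of *S100a8* were 273 ± 181 TPM in Δ*Gnas* DCs and 121 ± 47.9 TPM in WT DCs, and those of *S100a9* were 175 ± 148 and 62.8 ± 39.5 TPM (SD, n = 4 and 5). *S100a8* exceeded *S100a9* in all 9 libraries. The ratio of *S100a8* to *S100a9* was 2.43, 1.26, 1.74 and 1.43 in Δ*Gnas* DCs, against 1.96, 1.55, 3.19, 3.91 and 1.62 in WT DCs. It was highest in WT replicates 5 and 6, the libraries with the least of both. Within Δ*Gnas* DCs, *Mmp8* and *S100a8* overlapped in their ranges, so their order by mean does not stand beyond the spread.

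The summed TPM of all 10 genes was 668.1, 1396, 625.9 and 650.7 in Δ*Gnas* DCs, against 363, 722, 213, 647 and 696 in WT DCs. This was 0.0626 to 0.140% of all TPM in Δ*Gnas* DCs and 0.0213 to 0.0722% in WT DCs. Outside Δ*Gnas* replicate 4, the sums of the Δ*Gnas* libraries lay within the WT range.

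The make-up of the sum varied widely among libraries of one genotype. *Mmp8* held 23.5, 31.3, 77.5 and 50.4% of the sum in Δ*Gnas* DCs, against 26.6, 65.2, 50.3, 86.2 and 60.0% in WT DCs. *S100a8* and *S100a9* together held 72.6, 62.9, 20.7 and 45.9% in Δ*Gnas* DCs, against 68.8, 32.2, 46.2, 12.6 and 37.1% in WT DCs. The other 7 genes held 1.86 to 5.73% in Δ*Gnas* DCs and 1.27 to 4.53% in WT DCs. Libraries led by *Mmp8* and libraries led by the S100 pair were found in both genotypes.

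**Figure D2:**
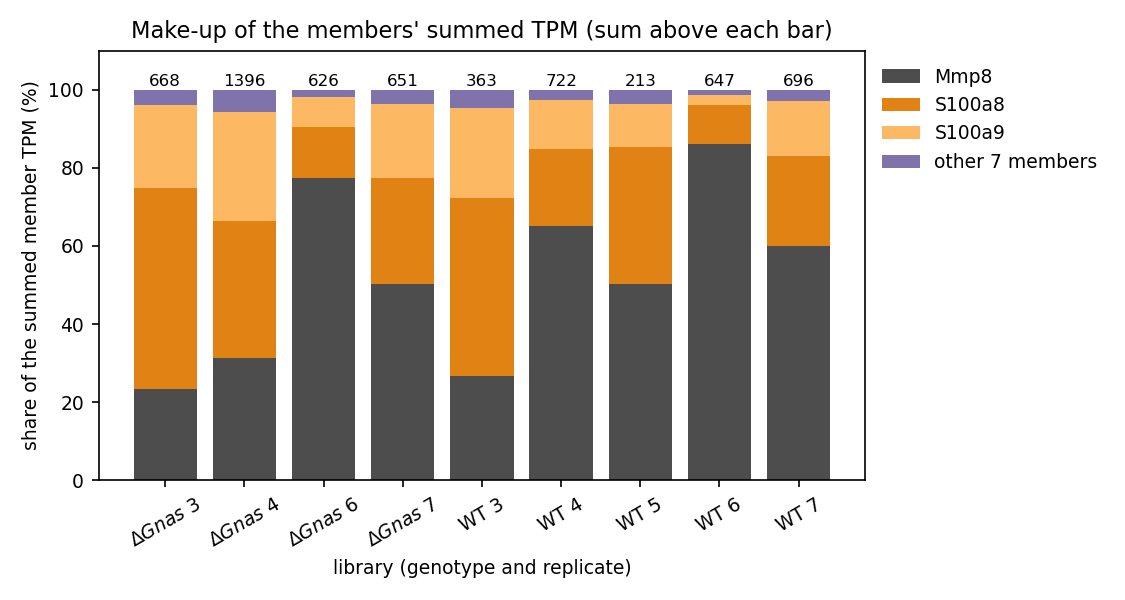
Share of the summed TPM of the 10 genes (y axis, %) held by *Mmp8*, *S100a8*, *S100a9* and the other 7 genes in each library (x axis), Δ*Gnas* left of WT, with the sum in TPM above each bar. *Mmp8* takes 86.2% in WT replicate 6 and 77.5% in Δ*Gnas* replicate 6 but 23.5% in Δ*Gnas* replicate 3, and the sum is 1396 TPM in Δ*Gnas* replicate 4 and 213 TPM in WT replicate 5.

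For 6 of the genes (*Ltf*, *Ngp*, *Camp*, *Lcn2*, *S100a8* and *S100a9*) the extremes of the order of libraries were the same. Δ*Gnas* replicate 4 was the highest of the 9 libraries for all 6, Δ*Gnas* replicate 6 ranked 7 for all 6, and WT replicates 5 and 6 held ranks 8 and 9 for all 6. Δ*Gnas* replicates 3 and 7 ranked 2 to 5, and WT replicates 3, 4 and 7 ranked 3 to 6, in an order that varied with the gene. Δ*Gnas* replicate 3, for example, ranked 5 for *Ltf*, *Ngp* and *Camp* but 2 for *Lcn2*, *S100a8* and *S100a9*. The libraries at ranks 7, 8 and 9, Δ*Gnas* replicate 6 and WT replicates 5 and 6, are all labelled female. Δ*Gnas* replicate 7 and WT replicate 7 are also labelled female, the latter with Y-linked transcripts, and ranked 2 to 6. The part of sex in the order of libraries was not tested. *Mmp8* departed from this order. WT replicate 6, at rank 8 or 9 for the 6 genes, had the most *Mmp8*, and Δ*Gnas* replicate 6 had the second most.

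The ratio of *Mmp8* to *S100a9* was accordingly 1.11, 1.12, 10.3 and 2.66 in Δ*Gnas* DCs, against 1.14, 5.16, 4.55, 33.7 and 4.24 in WT DCs. As a description over the same 9 libraries, deviations of log2(TPM + 1) from the genotype means had a Pearson r of 0.94 between *Ngp* and *Camp*, 0.93 between *S100a8* and *S100a9*, 0.94 between *Lcn2* and *S100a8* and 0.91 between *Ltf* and *Ngp*. It was lower between *Lcn2* and *Ngp* (0.64), *Ltf* (0.76) and *Camp* (0.79), and was 0.69 between *Ngp* and *S100a8*. With *Mmp8* the values ran between -0.20 (*S100a8*) and 0.28 (*Ngp*). The genes share their libraries, so these values describe 9 points each, and Δ*Gnas* replicate 4 is the highest library for all 6 genes other than *Mmp8*.

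**Figure D3:**
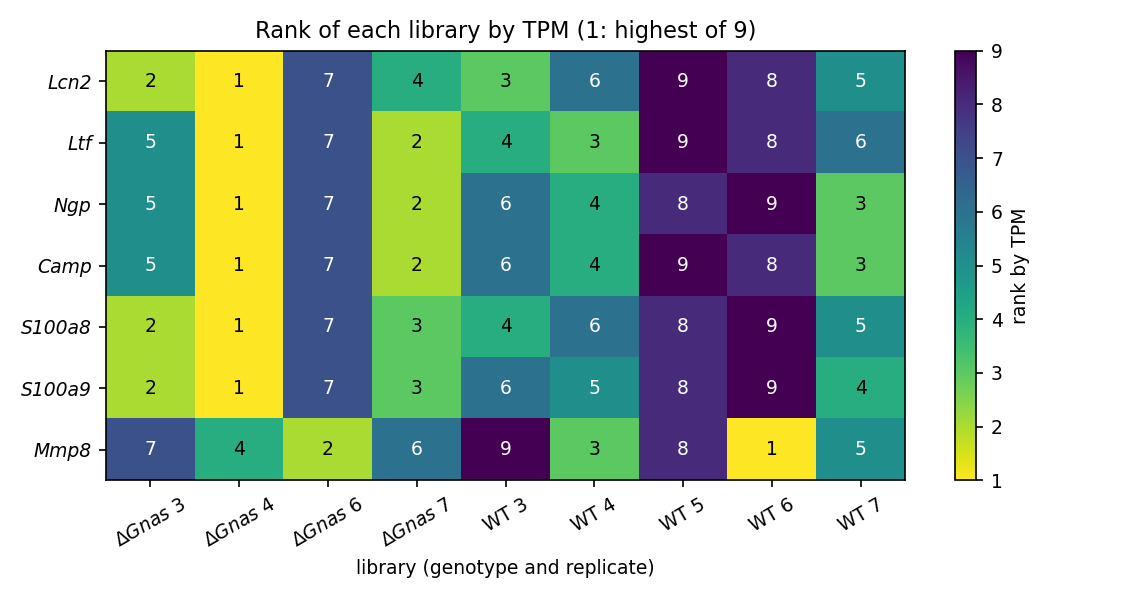
Rank of each of the 9 libraries (columns, Δ*Gnas* left of WT) by TPM for 7 genes (rows), from 1 for the highest to 9 for the lowest, with the color following the rank. Δ*Gnas* replicate 4 has rank 1 and Δ*Gnas* replicate 6 rank 7 in the top 6 rows, WT replicates 5 and 6 hold ranks 8 and 9 there, and in the *Mmp8* row WT replicate 6 has rank 1.

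The comparison of genotypes asked whether loss of *Gnas* changed these transcripts. No granule gene passed the test in either direction, and the fitted changes of 6 of the 7 tested genes were over 1 on the log2 scale with wide intervals. Of the 10 genes, 7 passed the filter and 3, the azurophil genes, did not. By edgeR's quasi-likelihood test with Benjamini-Hochberg adjustment over 11862 genes, 0 of the 7 were called higher and 0 lower in Δ*Gnas* DCs, where 9.56% of all genes tested were called (5.41% higher and 4.15% lower). At an unadjusted p under 0.05 there were 2 of 7, *Lcn2* and *S100a8*, where 23.7% of all genes were (12.6% higher). After adjustment the exact test of edgeR called 1 of the 7, DESeq2 called 1 and limma-voom called 0. These tools called 12.3%, 14.9% and 9.26% of all genes tested.

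*Lcn2* came closest. Its fitted log2 change was 1.72 (SE 0.54, 95% interval 0.53 to 2.92, adjusted p = 0.0746, unadjusted p = 0.00912). It passed the threshold by the exact test (1.73, adjusted p = 0.0150), which called 6.86% of all genes higher. It also passed by DESeq2 (1.72, adjusted p = 0.00624), which called 8.03% higher, and not by limma-voom, which called 5.1% higher. Without Δ*Gnas* replicate 6 edgeR gave 2.03 (adjusted p = 0.0391), in a fit that called 5.19% of all genes, 2.87% higher, and without Δ*Gnas* replicate 4 it gave 0.96 (adjusted p = 0.254). Over 21 alternatives its adjusted p ran between 0.00624 and 0.254. Whether *Lcn2* is called therefore rests on the test and on single libraries.

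The calprotectin genes had intervals that reached or nearly reached 0. For *S100a8* the log2 fold change came to 1.17 (SE 0.49, 95% interval 0.08 to 2.26, adjusted p = 0.181 by edgeR). *S100a9* had 1.48 (SE 0.68, lower end of the 95% interval -0.04, adjusted p = 0.222 by edgeR). Without Δ*Gnas* replicate 4 both came to 0.67 (adjusted p = 0.494 and 0.626 by edgeR).

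*Ltf*, *Camp* and *Ngp* did not pass the test either. The log2 fold change of *Ltf* was 1.22 (SE 0.60, adjusted p = 0.255 by edgeR), *Camp* 1.35 (SE 0.76, adjusted p = 0.322) and *Ngp* 1.12 (SE 0.69, adjusted p = 0.367). Without Δ*Gnas* replicate 4 they came to 0.52, 0.46 and 0.10, with adjusted p of 0.679, 0.788 and 0.951 by edgeR. The value for *Ngp* thus rests almost wholly on that library. *Mmp8* had 0.05 (SE 0.60, 95% interval -1.27 to 1.38, adjusted p = 0.970 by edgeR), an interval that spans a 2-fold change in both directions.

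**Figure D4:**
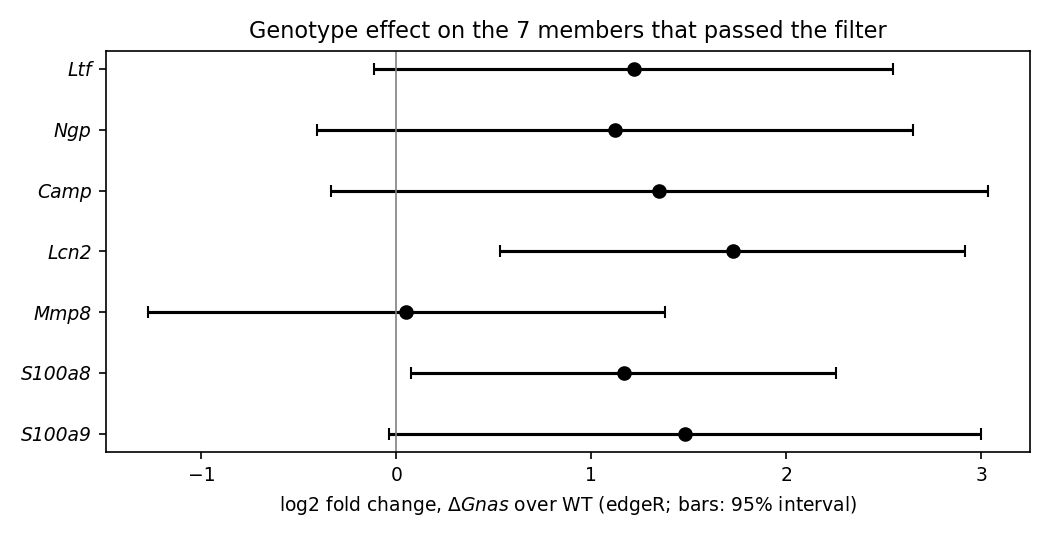
Log2 fold change of Δ*Gnas* over WT DCs (x axis) by edgeR for the 7 genes that passed the filter (rows), with 95% intervals as bars and a line at 0. The points lie between 1.12 and 1.72 except *Mmp8* at 0.05, and only the intervals of *Lcn2* (0.53 to 2.92) and *S100a8* (0.08 to 2.26) lie above 0.

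The median fitted change of the 7 genes was 1.22, against -0.0043 over all genes tested, and 4.64% of all genes had a fitted change over 1. The standard errors of the 7 were 0.49 to 0.76, where the median of all genes was 0.17, and even the smallest of them lay at the 93.7 percentile. TPM of the genotypes did not separate for any of the 10 genes (0 of 10), of which only 7 were tested. Of all genes tested, 10.6% had no overlap, and 0 among so few genes is not far from that share. Without WT replicate 3, and likewise without WT replicate 7, 0 of 7 were called, and *Lcn2* had 1.84 (adjusted p = 0.107) and 1.85 (adjusted p = 0.0966) by edgeR. In a bulk sample fewer cells of a type and less RNA per cell cannot be told apart. The p-values measure the spread between these libraries, which the study calls biological replicates.

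Other granule proteins were followed in lists by granule type. Of 11 other specific granule genes measured, 8 were tested and 3 rose in Δ*Gnas* DCs, where 5.41% of all genes were called higher, with 0 lower and a median log2 fold change of 0.58. The count was 1 without Δ*Gnas* replicate 4, Δ*Gnas* replicate 6, WT replicate 4 or WT replicate 7. *Pglyrp1*, a peptidoglycan-binding protein that kills bacteria, was at 26.7, 37.6, 17.6 and 16.6 TPM in Δ*Gnas* DCs, against 10.8, 9.36, 7.84, 4.46 and 6.44 TPM in WT DCs. The genotypes did not overlap. It rose by 1.69 on the log2 scale (SE 0.28, adjusted p = 0.00691 by edgeR) and was called with each library left out in turn (1.37 to 1.83). *Chil3*, the chitinase-like protein Ym1, rose by 1.499 on the log2 scale (SE 0.38, adjusted p = 0.0356 by edgeR), at 74.8 to 256 TPM in Δ*Gnas* DCs and 33.8 to 86.3 TPM in WT DCs. Its change without Δ*Gnas* replicate 4 was 1.001 (adjusted p = 0.0827), and leaving out any of 6 libraries ended the call.

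*Cybb*, the catalytic subunit of the NADPH oxidase that sits in the specific granule membrane, rose by 0.79 (SE 0.19, adjusted p = 0.0299 by edgeR), at 526 to 719 TPM in Δ*Gnas* DCs and 256 to 446 TPM in WT DCs. This call ended without any of 5 libraries. *Cybb* is also a member of the list of the oxidase and extracellular traps. Of its 8 tested genes 2 rose, where 5.41% of all genes were called higher, with a median of 0.41. The other was *Hvcn1*, the proton channel that keeps the oxidase running, with a rise of 0.63 (SE 0.11, adjusted p = 0.00943 by edgeR) that was called with each library left out in turn.

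Of 8 other azurophil granule genes measured, 4 were tested. Of these 1 fell, where 4.15% of all genes were called lower, and 0 rose, with a median log2 fold change of -0.18. The one was *Ctsc*, cathepsin C, which activates elastase and proteinase 3 by trimming them. It fell by 0.60 on the log2 scale (SE 0.15, adjusted p = 0.0349 by edgeR), to 229 to 268 TPM in Δ*Gnas* DCs, against 272 to 482 TPM in WT DCs, and leaving out any of 5 libraries ended the call. *Ctsg* and *Prss57*, serine proteases of the same granule, were under 1 TPM in every library, like *Elane*.

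Among genes of gelatinase granules and secretory vesicles, 8 of 10 were tested, 1 rose and 1 fell, with a median of -0.11. Of all genes tested, 5.41% were called higher and 4.15% lower. *Mmp25*, a membrane-anchored matrix protease of neutrophils, fell to 13.3 to 42.3 TPM in Δ*Gnas* DCs, against 81.6 to 203 TPM in WT DCs (log2 fold change -2.38, SE 0.32, adjusted p = 0.00270 by edgeR). *Hpse*, heparanase, rose by 0.95 (SE 0.20, adjusted p = 0.0168 by edgeR), at 28.5 to 45.3 TPM in Δ*Gnas* DCs and 13.1 to 21.5 TPM in WT DCs. Both were called with each library left out in turn. *Mmp25* and *Mmp8*, proteases of one family, thus had fitted changes of -2.38 and 0.05.

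Among the inhibitors of these proteins the calls depended on the test. Of 8 protease inhibitors 7 were tested and 0 called by edgeR's quasi-likelihood test, with a median of 0.63, and 5 had an unadjusted p under 0.05, where 23.7% of all genes did. The exact test called *Stfa2* (adjusted p = 0.0484) and *Stfa2l1* (adjusted p = 0.0440) higher and *Serpinb1a*, an inhibitor of neutrophil serine proteases, lower (adjusted p = 0.0303). DESeq2 called *Stfa2l1* and *Timp2*, an inhibitor of matrix metalloproteases, higher and *Serpinb1a* lower. *Serpinb1a* was at 1.66 to 5.34 TPM in Δ*Gnas* DCs and 2.51 to 16.6 TPM in WT DCs. The stefin A gene *Stfa2*, an inhibitor of cysteine proteases, was at 1.33 to 7.34 TPM in Δ*Gnas* DCs and 0 to 1.36 TPM in WT DCs, so that its fitted log2 change was 2.66 (SE 0.91, adjusted p = 0.102 by edgeR). The stefin A genes are near-identical copies between which reads can be split, so their values are uncertain. *Stfa2* and *Stfa2l1* also passed the filter only with the Δ*Gnas* libraries, where they were high, so no weight is put on their calls. Of 8 receptors of the granule proteins 6 were tested and 0 called (2 unadjusted, median -0.01). *Slc22a17*, a receptor for lipocalin 2, did not pass the filter of the main test. It was at 0.145 to 0.338 TPM in Δ*Gnas* DCs and 0.379 to 1.60 TPM in WT DCs. It was called lower only with counts rescaled by transcript length (adjusted p = 0.0246 by edgeR), a setting chosen after seeing the data. At this low level that call is not read as a fall. Of 12 other S100 genes 6 were tested and 0 called, 0 of them at an unadjusted p under 0.05, with a median of 0.16.

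Of 9 transcription factors of granulocyte formation, 8 were tested and 2 rose, where 5.41% of all genes were called higher, with a median of -0.16. *Cebpa*, which starts granulocyte commitment, was at 63.3 to 105 TPM in Δ*Gnas* DCs and 46.6 to 67.4 TPM in WT DCs (log2 fold change 0.64, SE 0.17, adjusted p = 0.0386 by edgeR). *Spi1* was at 314 to 321 TPM in Δ*Gnas* DCs and 212 to 256 TPM in WT DCs (0.44, SE 0.12, adjusted p = 0.0491 by edgeR). Both calls ended when any of 8 of the 9 libraries was left out. *Gfi1*, needed for neutrophil formation, was under 1 TPM in every library, and *Cebpe*, the factor of the specific granule stage, was at 0.945, 2.58, 2.02 and 2.36 TPM in Δ*Gnas* DCs, against 0.777, 1.45, 0.590, 1.85 and 1.26 TPM in WT DCs (log2 fold change 0.74, adjusted p = 0.349 by edgeR).

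**Figure D5:**
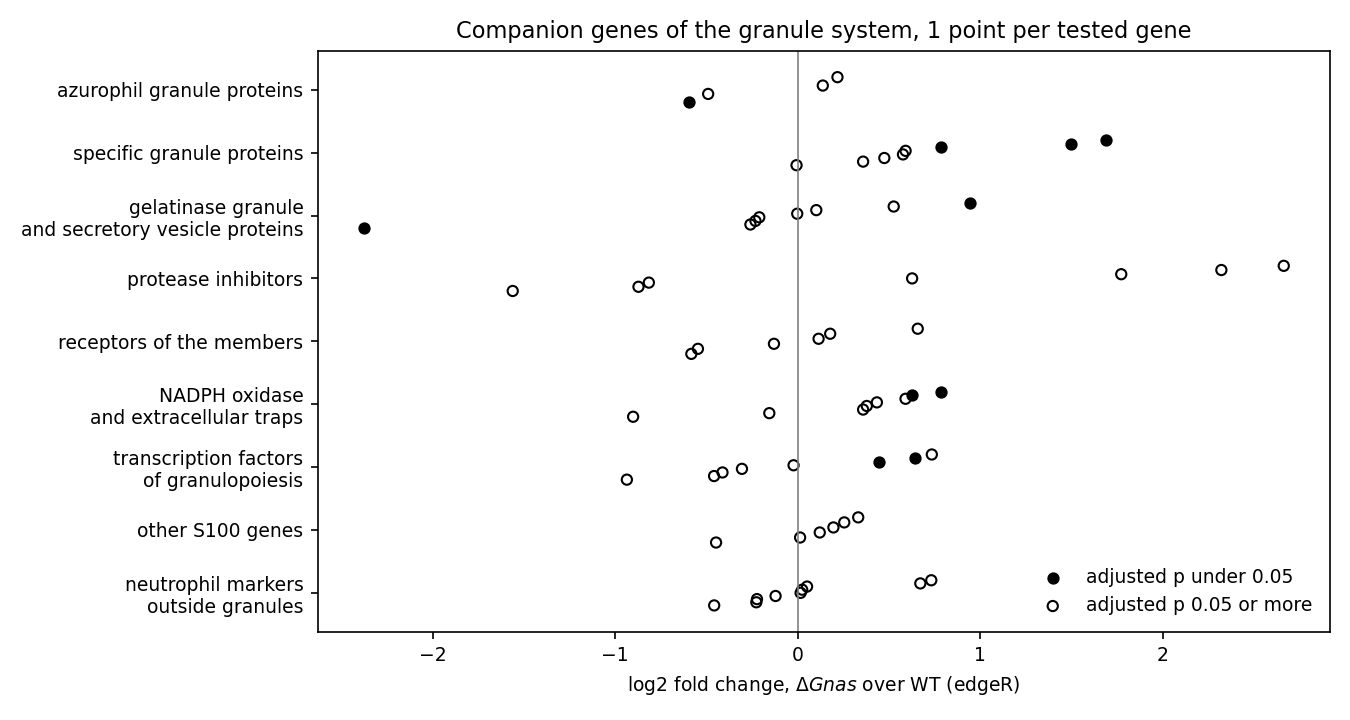
Log2 fold change of Δ*Gnas* over WT DCs (x axis) by edgeR for each tested gene of 9 lists around the granule system (rows), with filled points for an adjusted p under 0.05. Filled points stand to the right in the specific granule list (0.79 to 1.69), on both sides in the gelatinase list (-2.38 and 0.95), and nowhere among the protease inhibitors, receptors, other S100 genes and neutrophil markers.

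Markers of the cells that make these proteins were measured beside them. Of 12 neutrophil markers outside the granules 9 were tested and 0 called, 0 of them at an unadjusted p under 0.05, with a median log2 fold change of 0.02. Their summed level was 194 to 751 TPM in Δ*Gnas* DCs and 228 to 400 TPM in WT DCs, and Δ*Gnas* replicate 4 had 506 TPM of *Il1r2*, a decoy receptor for interleukin 1. *Ly6g*, which defines mouse neutrophils, was at 0, 0.456, 0 and 0.0367 TPM in Δ*Gnas* DCs, against 0.721, 0.213, 0.136, 0.164 and 1.02 TPM in WT DCs. *Asprv1* and *Cxcr1* were under 1 TPM in every library. Other markers of the list were well above that level. *Mcemp1* was at 52.4 to 102 TPM in Δ*Gnas* DCs and 62.1 to 90.7 TPM in WT DCs, and *Csf3r*, the receptor for G-CSF, was at 23.7 to 35.3 TPM in Δ*Gnas* DCs and 17.4 to 40.4 TPM in WT DCs. *Trem1* was at 9.44 to 39.9 TPM in Δ*Gnas* DCs and 16.001 to 38.9 TPM in WT DCs, and *Ifitm6* at 14.9 to 52.3 TPM in Δ*Gnas* DCs and 9.21 to 44.6 TPM in WT DCs. The list thus held both expressed and nearly undetected markers.

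*Retnlg*, a resistin-like protein of neutrophils, followed another order than the granule genes. It was at 0.234, 18.7, 13.9 and 8.49 TPM in Δ*Gnas* DCs, against 0.743, 24.1, 0, 8.15 and 24.4 TPM in WT DCs. It was near 0 in Δ*Gnas* replicate 3 and WT replicate 3, which ranked 2 to 6 for *Ltf*, *Ngp*, *Camp*, *Lcn2*, *S100a8* and *S100a9*.

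Of 7 monocyte markers, all tested, 1 rose, where 5.41% of all genes were called higher, and 0 fell. Their summed level was 393 to 925 TPM in Δ*Gnas* DCs and 181 to 848 TPM in WT DCs. The one was *Plac8* (log2 fold change 1.67, SE 0.37, adjusted p = 0.0223 by edgeR), and the call ended without Δ*Gnas* replicate 4 (adjusted p = 0.0662) or Δ*Gnas* replicate 7. Of 6 granulocyte progenitor markers 3 were tested and 1, the receptor gene *Kit*, fell (log2 fold change -1.25, SE 0.29, adjusted p = 0.0271 by edgeR), with sums of 6.78 to 16.8 TPM in Δ*Gnas* DCs and 13.1 to 24.5 TPM in WT DCs. The call of *Kit* ended without Δ*Gnas* replicate 4 (adjusted p = 0.0749), Δ*Gnas* replicate 7 or WT replicate 7. Of the other progenitor markers tested, *Cd34* had 0.60 (adjusted p = 0.488 by edgeR) and *Myb* -0.31 (adjusted p = 0.765), so the list did not move as one. Of 6 macrophage markers 4 fell, where 4.15% of all genes were called lower, and 0 rose, with sums of 312 to 926 TPM in Δ*Gnas* DCs and 1841 to 2736 TPM in WT DCs. They were the complement genes *C1qb* (log2 fold change -3.26), *C1qc* (-2.26) and *C1qa* (-2.22) and the receptor gene *Mertk* (-0.63), with adjusted p of 0.00416, 0.0127, 0.0186 and 0.0411 by edgeR. Without Δ*Gnas* replicate 4 the count was 2, the call of *C1qa* ended without 2 libraries and that of *Mertk* without any of 7. The macrophage markers *Adgre1* (0.01, adjusted p = 0.984 by edgeR) and *Mrc1* (-0.49, adjusted p = 0.111) were not called. Of the eosinophil markers 3 of 6 were tested and *Siglecf* rose (2.18, adjusted p = 0.00125 by edgeR), called with each library left out in turn. Of the T cell markers 1 of 3 was tested and called higher, *Cd3g* (2.83, adjusted p = 0.0489 by edgeR). It was at 0.317, 6.82, 1.13 and 2.47 TPM in Δ*Gnas* replicates 3, 4, 6 and 7 and 0.206 to 0.820 TPM in WT DCs. It thus passed the filter only through Δ*Gnas* replicates 4, 6 and 7, and no weight is put on the call. The call ended without any of the 5 WT libraries. Without Δ*Gnas* replicate 4, 6 or 7 the gene left the test. The part of these cell types in the granule gene values was not tested.

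The genes whose deviations from the genotype means followed the mean of the 7 tested granule genes most closely over the 9 libraries were *Stfa2* (Pearson r = 0.93), *Wdr75* (0.90), *Ms4a4c* (0.90), *Chil1* (0.89) and *Gm9733* (0.88). *Stfa2* is on the list of protease inhibitors, and *Chil1* encodes a chitinase-like protein, as *Chil3* does. *Chil1* was at 0.531 to 3.09 TPM in Δ*Gnas* DCs and 0.0223 to 1.06 TPM in WT DCs (log2 fold change 1.37, adjusted p = 0.325 by edgeR). Of the 5, only *Ms4a4c*, of a family of membrane proteins, passed the test of genotype, at 13.3 to 23.9 TPM in Δ*Gnas* DCs and 7.08 to 10.5 TPM in WT DCs (log2 fold change 0.99, adjusted p = 0.0220 by edgeR). These are the highest values among all other genes tested, over 9 points each.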

How the data were processed

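The authors made stranded mRNA libraries, trimmed the reads, assigned them to transcripts with Kallisto (GRCm38) and summed them to genes with tximport. The deposited table gives the authors' TPM and estimated counts for 9 libraries. Of 30620 rows, 32 that name no gene (0.0843 to 0.121% of the counts) were left out. Within a library, the deposited estimated counts are a fixed multiple of the TPM, and thus hold no information on gene length.

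Counts were rounded. A gene entered the test if 3 or more libraries had over 1 CPM of it, which 11862 genes met. They were tested with edgeR 4.0.16 (glmQLFit and glmQLFTest, R 4.3.3) after TMM scaling, and p-values were adjusted over all of them by Benjamini-Hochberg, with a threshold of 0.05. The study's exact test was run as an alternative, beside DESeq2 1.42.0, limma 3.58.1, other factors and filters, limma-trend on log2 TPM with pseudocounts of 1 and 0.1, labelled sex, a replicate block and leaving out each library. Standard errors were obtained by dividing the size of the log2 fold change by √F. The procedure was tested on simulated data. Ranks, shares and ratios used Python 3.11.15 and pandas 2.3.3. Coordinates are from GENCODE M21.

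Beside the 10 granule genes, the text names up to 4 called genes of each list by smallest p and the 5 genes most like the tested ones. Other named genes (*Cebpe*, *Retnlg*, *Ly6g*, *Il1r2*, *Mcemp1*, *Csf3r*, *Trem1*, *Ifitm6*, *Cd74*, *Flt3*, *Stfa2*, *Stfa2l1*, *Serpinb1a*, *Timp2*, *Slc22a17*, *Srgn*, *Irf8*, *Cd34*, *Myb*, *Adgre1*, *Mrc1* and those listed under 1 TPM) were chosen after their values were seen. The granule genes and the lists were chosen with earlier results of these data known. Markers of eosinophils, mast cells and basophils, B cells, T cells and erythroid cells were also measured, with sums in Δ*Gnas* against WT DCs of 30.5 to 55.3 against 10.8 to 22.3, 2.60 to 12.4 against 2.49 to 4.28, 0.478 to 3.18 against 0.398 to 2.19, 1.37 to 7.55 against 0.829 to 1.47 and 0.262 to 2.62 against 0.165 to 0.849 TPM.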

Additional observations from a re-analysis of the deposited data

Results flagged for a closer look

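In groups of 4 and 5 libraries, a library was singled out where its gap to the next one took up most of the group's range. Of 42 such groups of values 4 had one, and among independent groups chance alone marks about 1 in 20. These groups share libraries and genes, so the 4 cannot be set against that rate. The summed level of the 10 granule genes was 1396 TPM in Δ*Gnas* replicate 4, and the next highest Δ*Gnas* library had 668.1 TPM. The ratio of *Mmp8* to *S100a9* was 10.3 in Δ*Gnas* replicate 6, against 1.11 to 2.66 in the other Δ*Gnas* libraries. The same ratio was 33.7 in WT replicate 6, against 1.14 to 5.16 in the other WT libraries. The ratio of *Ngp* to *Camp* was 10.6 in WT replicate 5, where *Camp* had 10 counts. No difference of the genotype effect between the labelled sexes passed edgeR's interaction test for any of the 7 tested granule genes or for any of 11862 genes (172 at an unadjusted p under 0.05). That test held WT replicate 7 as female despite its Y-linked transcripts. With few libraries per genotype and sex, it cannot exclude such a difference.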

How the results depend on the processing

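The count of granule genes called higher was 0 in the main comparison, 1 (*Lcn2*) by DESeq2 and by the exact test, and 0 to 1 with each library left out, with 1 only without Δ*Gnas* replicate 6. None was called lower under any alternative run. At a detection level of 0.1 TPM, 9 genes in place of 5 were found in every library. *Mmp8* changed sign without Δ*Gnas* replicate 4 (-0.09), Δ*Gnas* replicate 6 (-0.13), WT replicate 3 (-0.21) or WT replicate 5 (-0.18), and ran from -0.21 to 0.30 with each library left out. The other 6 tested genes kept a positive log2 fold change throughout, in ranges of 0.52 to 1.503 for *Ltf*, 0.10 to 1.47 for *Ngp*, 0.46 to 1.84 for *Camp*, 0.96 to 2.03 for *Lcn2*, 0.67 to 1.47 for *S100a8* and 0.67 to 1.81 for *S100a9*.

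Libraries of the same replicate number correlated at 0.29, -0.04, 0.25 and 0.16 for numbers 3, 4, 6 and 7. Number 4 did not reach 0.1, so the numbers were not taken to pair the libraries, although 3 of the 4 Δ*Gnas* libraries correlated best with their own number. With the replicate number as a block, 0 granule genes were called, and the log2 fold changes were 0.79 for *Ltf*, 0.70 for *Ngp*, 0.82 for *Camp*, 1.17 for *Lcn2* (adjusted p = 0.152 by edgeR), 0.00 for *Mmp8*, 0.83 for *S100a8* and 1.17 for *S100a9* (adjusted p = 0.0777). WT replicate 5 has no Δ*Gnas* library of its number, so it added nothing to the genotype effect in that fit. The block moved the transcription factors called higher to 0, in place of 2, with 1, *Irf8*, lower in place of 0, the azurophil genes called lower to 0 in place of 1, and the protease inhibitors to 2 higher (*Stfa2* and *Stfa2l1*) and 1 lower (*Serpinb1a*) in place of 0 and 0. No weight is put on the calls of *Stfa2* and *Stfa2l1*, which passed the filter only with the Δ*Gnas* libraries. A filter of over 5 CPM left 5 genes. Counts rescaled by transcript length, chosen after seeing the data, left 6 with 0 called. Counts of called genes in the lists moved by over 1.5 times in 115 cases, 58 of them on leaving out a library. The exact test called 2 azurophil genes lower (*Ctsc* and *Srgn*) in place of 1, and 1 transcription factor (*Irf8*) lower in place of 0. DESeq2 called 4 genes of the oxidase list higher in place of 2. The azurophil genes had at most 56 counts per library, which limits what can be said of them.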
